A study of Mus musculus with 2 samples.

Results

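Early erythroid cells of mouse bone marrow were taken as the cells in which the summed level of Car1, Klf1, Hemgn, Aqp1 and Rhd was at least 15 UMIs per 10000, the summed level of the haemoglobin genes Hba-a1, Hba-a2, Hbb-bs and Hbb-bt was under 1000, and the summed level of S100a8 and S100a9 was under 400. A UMI (unique molecular identifier) marks 1 captured mRNA molecule, and a level is the number of UMIs of a gene per 10000 UMIs of the cell or of the summed cells. The rule kept 310 of 10610 cells, of which 180 of 5398 came from the library labelled MCAO and 130 of 5212 from the library labelled control. The cells were chosen by these marker, haemoglobin and S100 levels, so all gene levels of the gated cells set against other cells are a description.

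MCAO is middle cerebral artery occlusion, a surgical mouse model of ischaemic stroke. Both libraries held whole marrow from the tibias and femurs of male wild-type mice aged 8 to 10 weeks, and both were treated with red blood cell lysis buffer before capture on the BD Rhapsody microwell system, with no sort by surface marker. The labels separate the libraries by disease state and attach the same model name to both, and they say nothing of how many animals each library pooled, how long after occlusion the marrow was taken or how control animals were handled. With 1 library per group there was no replicate check and no test: the 95% intervals below cover counting error only. Those of levels and ratios are over summed UMIs and leave out the spread between cells. The spread between animals is unknown.

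Red cells form in the marrow from progenitors that first depend on the receptor KIT and later on the erythropoietin receptor EPOR. The transcription factors GATA1, TAL1 and KLF1 switch on the enzymes of haem synthesis, the globins and the proteins of the red cell membrane, while GATA2, MYB and MYC, which maintain progenitors, are switched off. The cells divide several times while haemoglobin accumulates, and then condense and expel the nucleus.

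The 5 marker genes belong to different parts of this programme. Klf1 encodes the Krüppel-like factor that activates adult beta-globin and many other red cell genes. Car1 encodes a cytosolic carbonic anhydrase, Aqp1 the red cell water channel, Rhd a Rhesus blood group protein of the membrane, and Hemgn the nuclear protein hemogen. In mm10 coordinates they lie at chr8:84901928-84905291 (Klf1), chr3:14766216-14808368 (Car1), chr6:55336432-55348555 (Aqp1), chr4:134864536-134896172 (Rhd) and chr4:46393989-46413506 (Hemgn), all annotated as protein coding.

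The sequence before the start of 3 of the 5 marker genes is shown, as RefSeq gives it for GRCm38.p6. The RefSeq set matched 4 of the 5 by symbol. Capitals mark GATAA, the core letters bound by GATA factors, and CCNCNCCC, letters of the CACCC box bound by Krüppel-like factors, on either strand. Both motifs were chosen with the sequences known. Klf1 is chr8:84901732-84901927 on the plus strand, Aqp1 chr6:55336049-55336298 on the plus strand and Rhd chr4:134864286-134864535 on the plus strand.
Klf1: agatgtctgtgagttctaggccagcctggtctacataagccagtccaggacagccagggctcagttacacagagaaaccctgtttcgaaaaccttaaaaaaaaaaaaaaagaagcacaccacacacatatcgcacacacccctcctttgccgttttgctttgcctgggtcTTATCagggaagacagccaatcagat
Aqp1: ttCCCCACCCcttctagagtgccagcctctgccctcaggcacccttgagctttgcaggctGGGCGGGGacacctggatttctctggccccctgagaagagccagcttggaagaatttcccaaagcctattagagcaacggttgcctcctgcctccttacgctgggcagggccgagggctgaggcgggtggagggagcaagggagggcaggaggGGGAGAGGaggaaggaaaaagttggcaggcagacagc
Rhd: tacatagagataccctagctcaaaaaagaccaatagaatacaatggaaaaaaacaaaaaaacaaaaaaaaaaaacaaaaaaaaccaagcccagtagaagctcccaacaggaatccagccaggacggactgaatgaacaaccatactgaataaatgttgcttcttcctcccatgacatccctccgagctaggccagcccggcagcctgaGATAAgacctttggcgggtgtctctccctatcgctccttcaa

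Klf1 and Rhd each held 1 GATAA match and Aqp1 held 3 CCNCNCCC matches. The Klf1 sequence is 196 bases long and the others 250. Of the 32851 RefSeq windows of 250 bases, 22.6% held GATAA and 45.9% held CCNCNCCC, so such matches are common, and each is a match of letters and not a measured binding site.

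The label was first checked against genes that the rule did not use. Of 18 measured erythroid genes, the gated cells had a UMI of a median of 17 in the MCAO library and 16 in the control library, against a median of 2 and 1 in the cells outside the gate. Such counts rise with depth and were not compared at equal depth. The gated cells had median depths of 16855 and 15621 UMIs, against 4839 and 3302.5 outside. The levels that follow are relative to the UMIs of the cells. Car2, a second carbonic anhydrase, had a level of 83.6 in MCAO gated cells and 83.0 in control gated cells, and of 4.12 and 2.76 in the cells outside. Tfrc, the transferrin receptor that brings in iron, had levels of 10.95 and 9.02, against 1.32 and 1.11 outside. Erythroid genes outside the rule were thus detected together in the gated cells of both libraries. Of the genes that chose the cells, all 5 markers were detected in 138 of the MCAO cells (76.7%) and 90 of the control cells (69.2%).

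Genes of stem cells, platelets and late erythroid cells were examined next. Cd34, a stem and progenitor marker, had a UMI in 4.44% of MCAO gated cells and 7.69% of control gated cells, against 0.387% and 0.210% of B-lineage cells (defined below). Pf4, a platelet gene, had a UMI in 3.33% and 2.31% of gated cells and in 0.580% and 0.315% of B-lineage cells. These shares rise with depth, and gated cells were read more deeply than B-lineage cells. After thinning to 1000 UMIs a cell, Cd34 was seen in 0% and 0.813% of gated cells, where 0 of 176 MCAO cells allows up to 2.07% (exact binomial). In thinned B-lineage cells it was seen in 0% and 0.110%. Thinned Pf4 shares were 0.568% and 0% of gated cells and 0% and 0.220% of B-lineage cells. For both genes the thinned intervals of the 2 sets overlapped in each library. Alas2, the rate-limiting enzyme of erythroid haem synthesis, had levels of 0.471 and 0.376 in the gated cells, against 6.27 and 4.93 in the 129 MCAO and 79 control cells with a haemoglobin level of at least 1000 (late erythroid cells). The rule itself keeps the gated cells below the late cells in haemoglobin, so this contrast is a description.

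The gate also held a few cells with little erythroid evidence. A UMI of fewer than 3 of the 18 genes was found in 1 MCAO cell and 10 control cells, and the 10 had a median of 1064 UMIs. Of these 10, 5 had neutrophil markers as their highest other list, 3 B-lineage markers, 1 T and NK cell markers and 1 dendritic cell markers. Neutrophil markers had a summed level of 55.5 in control B-lineage cells as well. The highest list therefore does not tell what these cells are. Just inside the marker threshold, at 15 to 20, lay 5 MCAO and 8 control cells, and just outside it, at 10 to 15, lay 12 and 18. The erythroid genes detected had a median of 7 in the MCAO and 1 in the control cells just inside, and of 1.5 and 1 in those just outside. Scrublet, which scores cells for likeness to simulated doublets, called 1.19% of the MCAO library and 1.04% of the control library, and 2 MCAO gated cells and 0 control gated cells.

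The gated cells were deeply read. Their median was 16855 UMIs in the MCAO library and 15621 in the control library, against medians of 4952 and 3344 over all cells. The deposited names end in running numbers, and 5120 endings occur in both libraries, so barcodes shared between the libraries could not be counted. Free RNA was present: S100a8, a neutrophil alarmin, had levels of 60.7 and 47.7 in the gated cells, and 61.1 and 47.4 in B-lineage cells, which do not make it. B-lineage cells are those with a Cd79a plus Cd79b level of at least 15, and made up 517 MCAO and 954 control cells.

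Gated cells made up 3.34% of the MCAO library (95% interval 2.87 to 3.85, Clopper-Pearson) and 2.49% of the control library (2.09 to 2.96). The share was thus 0.840 percentage points (0.187 to 1.496) higher in the MCAO library. Outside the B-lineage set, which was 9.58% of MCAO cells and 18.3% of control cells, the gated share was 3.69% and 3.05%, and the intervals of 3.18 to 4.26 and 2.56 to 3.62 overlapped. Of gated plus late erythroid cells, the gated cells were 58.2% in the MCAO library and 62.2% in the control library, also with overlapping intervals. The direction of the share rested on the S100 limit of the gate: with a limit of 100 in place of 400, 47 MCAO and 77 control cells remained and the difference was -0.607 percentage points. The median S100a8 plus S100a9 level of gated cells was 109.3 in the MCAO library and 95.9 in the control library, so that limit cut through the gated cells of both.

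Haemoglobin placed the gated cells in a gradient. Its summed level in a cell had a lowest value of 11.4, a median of 139.8 and a highest value of 958.3 in the MCAO library, and 0, 84.7 and 972.7 in the control library. The groups overlapped over nearly the whole range. Over the summed UMIs the level was 188.8 in MCAO gated cells and 126.4 in control gated cells, a ratio of 1.49 (1.47 to 1.52). The interval of this ratio leaves out the spread between cells. Haemoglobin in cells outside the gate had medians of 15.7 and 8.52, and the part of free haemoglobin RNA in the difference was not tested. As a mean of the per-cell levels the log2 ratio was 0.31, against 0.58 over summed UMIs.

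**Figure D1:**
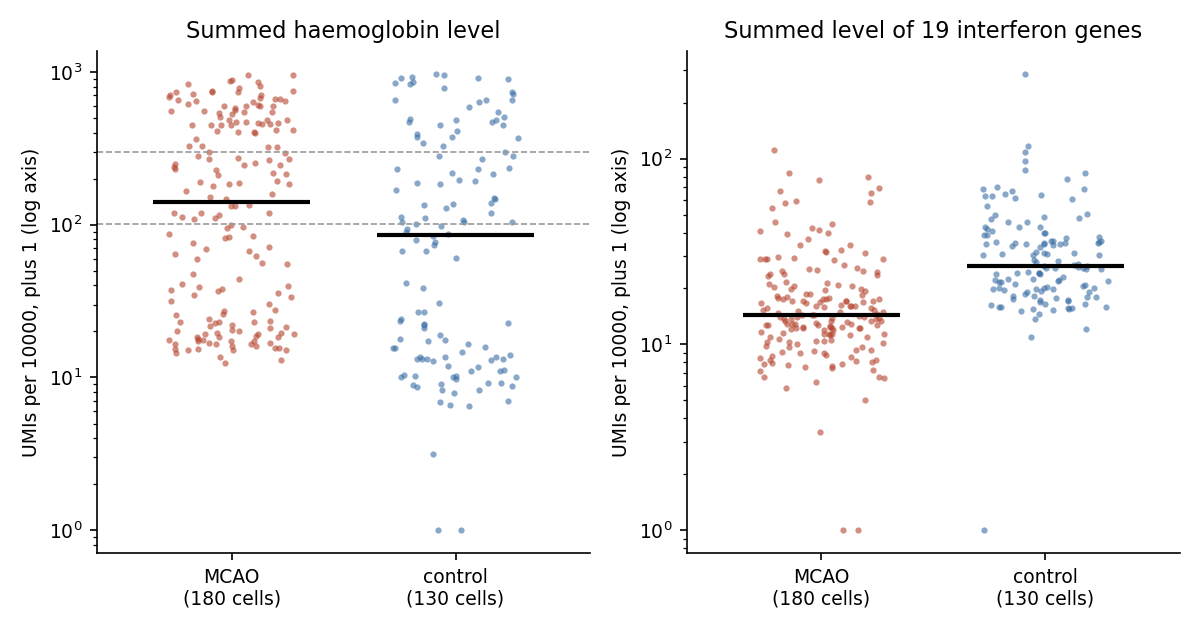
Each point is 1 gated cell, by library, and the black line is the median. The left panel shows the summed haemoglobin level (UMIs per 10000 plus 1, log axis) with dashed lines at the range borders of 100 and 300; the right panel shows the summed level of 19 interferon response genes. Haemoglobin medians were 139.8 (MCAO) and 84.7 (control), and interferon gene medians were 13.4 and 25.6.

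The gradient was divided at haemoglobin levels of 100 and 300. The lowest range held 80 MCAO cells (44.4%) and 69 control cells (53.1%), the middle range 37 (20.6%) and 27 (20.8%), and the highest range 63 (35%) and 34 (26.2%). The intervals of the highest range, 28.1 to 42.5 and 18.8 to 34.6, overlapped. In the lowest range the haemoglobin medians of 21.4 and 12.6 were close to those of B-lineage cells, 16.2 and 8.30. Depth fell along the gradient, with median UMIs of 23578, 20012 and 12197 in the MCAO library and 19876, 18935 and 8105 in the control library.

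Across 5779 genes with enough UMIs in both libraries, 330 were at least 2-fold higher in the highest than in the lowest haemoglobin range in both libraries (5.71%), and 815 were at least 2-fold lower in both (14.1%). The median gene had log2 ratios of -0.25 in the MCAO library and -0.27 in the control library. These are levels relative to all UMIs of the cells.

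The receptor and transcription factors of progenitors were high in the lowest range and low beyond it. Kit had levels of 1.63, 0.0301 and 0.0264 from the lowest to the highest range in the MCAO library, and 1.19, 0.0379 and 0.0324 in the control library. The values of the 2 higher ranges rest on 1 or 2 UMIs each, with intervals of 0.00319 to 0.0953 in MCAO and 0.00082 to 0.180 in control in the highest range. Gata2 had levels of 0.897, 0.0752 and 0.0264 in the MCAO library and 0.786, 0.0948 and 0.0648 in the control library. Both genes were thus low in every range above a haemoglobin level of 100.

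Myb, which sustains progenitor division, had levels of 4.16, 0.436 and 0.290 in the MCAO library and 4.03, 0.588 and 0.291 in the control library. Ccnd2, a cyclin of early progenitors, had levels of 1.97, 0.151 and 0.0923, and 1.90, 0.284 and 0.0971. Its relative Ccnd3, a cyclin that governs how many divisions terminal erythroblasts make in mouse, went the other way, with 0.665 in the lowest and 2.78 in the highest range of the MCAO library and 0.692 and 2.75 in the control library. The 2 D-type cyclins thus moved in opposite directions along the gradient in both libraries.

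The factors of the erythroid programme itself were mixed. Gata1 had levels of 3.04, 4.14 and 4.69 in the MCAO library and 3.62, 3.89 and 4.21 in the control library. Epor had levels of 1.66, 2.02 and 2.80, and 1.77, 2.10 and 1.94. Of the 16 erythroid transcription factors, 1 was at least 2-fold higher in the highest range in both libraries and 3 were lower, near the shares of all genes (5.71% and 14.1%). Sox6, which silences embryonic globin genes, was the one that was higher, with levels of 0.244, 2.53 and 3.38 in the MCAO library and 0.153, 1.95 and 3.34 in the control library. Myb, Bcl11a and Cbfa2t3 were the lower ones. Cbfa2t3, a corepressor that works with TAL1, had 1.64, 0.181 and 0.237, and 2.13, 0.645 and 0.292.

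Haem and membrane genes were higher along the gradient as groups. All 8 tested haem synthesis enzymes were at least 2-fold higher in the highest range in both libraries. So were 13 of 17 red cell membrane and blood group genes, and none of either list was lower. By the same measure 5.71% of all genes were higher and 14.1% lower. Slc4a1, the anion exchanger band 3, was the leading gene, with levels of 0.670, 12.8 and 29.9 in the MCAO library and 0.815, 11.7 and 30.6 in the control library. Fech, the enzyme that inserts iron into haem, had 3.12, 8.94 and 12.2, and 2.93, 6.63 and 11.4. Alas2 came late, with 0.0284, 0.406 and 1.56, and 0.0582, 0.246 and 2.01.

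Slc25a37, the mitochondrial iron importer mitoferrin 1, had 1.51 in the lowest and 18.4 in the highest range of the MCAO library, and 1.59 and 16.5 in the control library. By the rule for leading genes of the gradient, Fn3k, Cdc25b, Acp5, Apol8 and Tac2 stood beside Slc4a1, Alas2 and Sox6 as genes with higher levels. Cdc25b is a phosphatase that admits cells to mitosis. Srm, Gcsh, Nefh, Grb10, Rftn1, Mcrip2 and Cluh stood beside Kit as genes with lower levels.

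**Figure D2:**
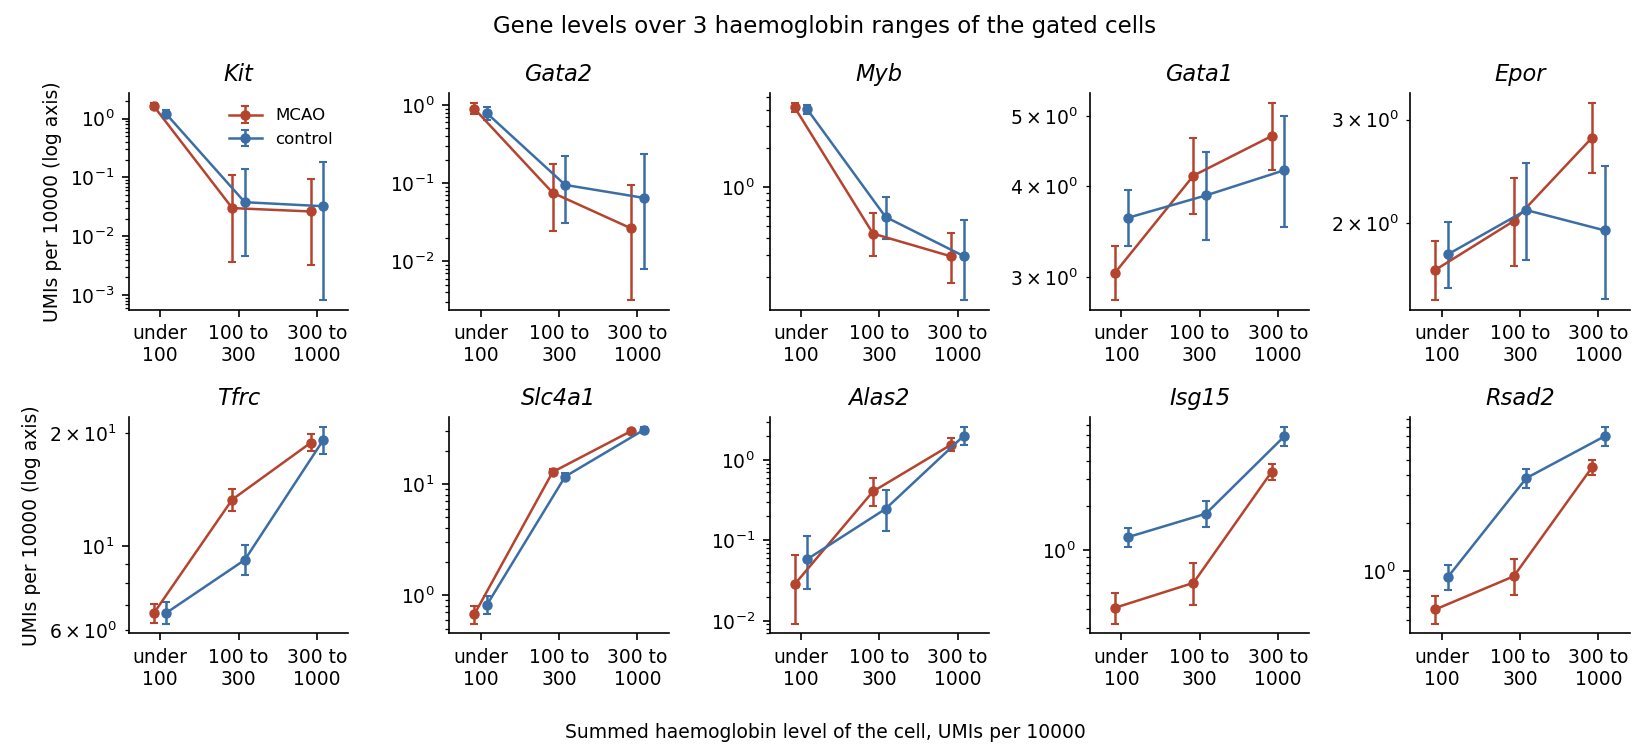
Levels of 10 genes (UMIs per 10000, log axis, scale differs by panel) in the 3 haemoglobin ranges of the gated cells, with 95% Poisson intervals, MCAO in red and control in blue. Kit, Gata2 and Myb were low from the middle range on, Tfrc, Slc4a1 and Alas2 were higher there than in the lowest range, and Isg15 and Rsad2 were higher in the highest range with the MCAO values under the control values in each range.

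Growth and division genes were separated along the gradient. Of 16 genes of ribosome production and polyamine synthesis, 13 were at least 2-fold lower in the highest range in both libraries and none was higher. By the same measure 14.1% of all genes were lower and 5.71% higher. Srm, spermidine synthase, had 2.49 in the lowest and 0.0528 in the highest range of the MCAO library, and 2.44 and 0.0648 in the control library. Npm1, the nucleolar chaperone nucleophosmin, had 32.5 and 5.45, and 30.6 and 5.12. Odc1, which makes putrescine and heads the same polyamine pathway, had 2.36 and 5.96 in the MCAO library and 2.37 and 4.28 in the control library, against the direction of most of its list.

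Of 24 genes of G2 and M phase, 12 were at least 2-fold higher in the highest range in both libraries and none was lower. Of 21 tested S phase genes, 5 were higher and none lower. The shares of all genes by that measure were 5.71% higher and 14.1% lower. Mki67, the proliferation antigen Ki-67, had 9.29, 26.3 and 37.9 in the MCAO library and 11, 23.1 and 40.0 in the control library. When cells were thinned to 1000 UMIs, 71.0% of MCAO gated cells and 70.7% of control gated cells had a Mki67 UMI, against 11.8% and 13.1% of B-lineage cells, whose median depths were 2127 and 1956 UMIs. Unthinned shares of gated cells were 94.4% and 88.5%. Mki67 was thus detected in most gated cells of both libraries, and their thinned shares differed by less than their intervals.

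Chaperone and glycolysis genes were lower as haemoglobin was higher. Of 10 tested heat shock chaperones, 7 were at least 2-fold lower in the highest range in both libraries and 1, Dnajb1, was higher. Among all genes, 14.1% were lower and 5.71% higher by that measure. Hspd1, the mitochondrial chaperonin, had 6.78 in the lowest and 0.844 in the highest range of the MCAO library, and 8.54 and 1.00 in the control library. Of 11 tested glycolysis enzymes 7 were lower and none was higher, among them Ldha, lactate dehydrogenase A, with 5.71 and 1.25, and 5.37 and 1.00. Hk1, the hexokinase of red cells, had 2.89 and 2.91, and 2.93 and 3.56, and so held its level.

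Interferon response genes were somewhat higher along the gradient, and a pair of them clearly so. The list's median log2 ratio of the highest over the lowest range was 0.71 in the MCAO library and 0.57 in the control library, against -0.25 and -0.27 for all genes. Its summed level was 13.2, 13.1 and 25.2 from the lowest to the highest range in the MCAO library and 23.7, 27.5 and 41.2 in the control library. Of all genes, 5.71% were at least 2-fold higher in the highest range in both libraries and 14.1% were lower. Of 17 tested interferon genes, 2 were higher by that measure and 1 was lower. The higher ones were Isg15, a ubiquitin-like protein that is joined to other proteins after interferon, and Rsad2, the antiviral enzyme viperin. Isg15 had levels of 0.409, 0.602 and 3.39 in the MCAO library and 1.22, 1.76 and 5.86 in the control library. Rsad2 had 0.579, 0.933 and 4.48, and 0.925, 3.83 and 6.995.

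Levels were higher still in the late erythroid cells, where Isg15 had 10.3 and 15.6 and Rsad2 23.5 and 33.0 in the MCAO and control libraries. B-lineage cells had 0.357 and 0.628 of Isg15 and 0.608 and 0.675 of Rsad2. Ube2l6, an enzyme that passes ISG15 to its targets, is not in the interferon list. Its level was also higher along the gradient. It was 1.198 in the lowest and 5.84 in the highest range of the MCAO library, and 2.30 and 6.48 in the control library. Bst2, the cell surface protein tetherin, was the one gene of the interferon list that was lower, with 0.886, 0.406 and 0.382, and 2.12, 1.10 and 0.745.

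Between the libraries, 8659 genes had at least 50 UMIs over the gated cells and a UMI in at least 2% of the cells of 1 library. Of these, 192 were at least 1.5-fold higher in MCAO gated cells (2.22%) and 359 at least 1.5-fold lower (4.15%), with a median log2 ratio of -0.03. Ratios were formed with 0.02 added to each level. These are not tested calls, and the counts moved with the added value and the UMI minimum: with 0.1 added, 53 genes were higher and 126 lower. With the 3 haemoglobin ranges weighted alike, 466 were higher and 447 lower, so the excess of lower genes was not kept.

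Of the pathway lists, interferon response genes had the lowest median ratio. All 19 had a lower level in MCAO gated cells, 16 by at least 1.5-fold, and 17 had an interval of the ratio below 1. The median log2 ratio was -0.86, against -0.03 for all genes, of which 4.15% were at least 1.5-fold lower. In the lowest, middle and highest haemoglobin ranges the median was -0.91, -1.21 and -0.79, and 18 of the 19 were lower in each range, the exception being Ifi47, which was higher in the highest range.

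Usp18, the protease that removes ISG15 and damps interferon signalling, had a level of 0.245 (0.194 to 0.306) in MCAO gated cells and 0.683 (0.579 to 0.801) in control gated cells, which is 2.79-fold lower. In mm10 it lies at chr6:121245906-121270917, Isg15 at chr4:156199424-156200818, Rsad2 at chr12:26442746-26456452 and Bst2 at chr8:71534255-71537456. Bst2 had 0.666 in MCAO gated cells and 1.68 in control gated cells. Irf7, a transcription factor that amplifies the interferon response, had 0.814 and 1.49. Isg15 had 1.16 and 2.0 and Rsad2 1.58 and 2.47. Ifitm3, a membrane protein that blocks virus entry, was the most abundant of the list and had 6.03 and 8.47, which did not reach 1.5-fold.

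The sum over the 19 genes had a level of 16.1 (15.6 to 16.5) in MCAO gated cells and 27.1 (26.4 to 27.8) in control gated cells. Per cell it had quartiles of 10.1 and 20.1 and a median of 13.4 in the MCAO library, and quartiles of 18.9 and 37.7 and a median of 25.6 in the control library. The per-cell distributions overlapped, with most MCAO cells below the control median. After thinning to 1000 UMIs, an Isg15 UMI was seen in 10.8% (6.63 to 16.3) of MCAO gated cells and 19.5% (12.9 to 27.6) of control gated cells, against 3.10% and 5.39% of B-lineage cells, so the intervals overlapped. Unthinned the gated shares were 50.6% and 70.8%. Ifit3, an interferon-induced antiviral protein, was seen after thinning in 3.41% of MCAO and 3.25% of control gated cells, below the 10.5% and 8.36% of B-lineage cells, and its unthinned gated shares were 26.1% and 42.3%. A difference in Ifit3 was thus not detectable in the thinned cells.

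The difference was not limited to the gated cells. All 19 genes were also lower in MCAO among the cells outside the gate, with a median log2 ratio of -0.57. The summed level was 0.593 times the control in gated cells, 0.709 times in late erythroid cells, 0.651 times in 25 MCAO and 24 control cells outside the gate with a Cd34 plus Kit level of at least 10 and a level of the granule genes Mpo, Elane, Prtn3 and Ctsg under 50, within the haemoglobin and S100 limits of the gate, and 0.799 times in B-lineage cells. Whether the ratio differs between these sets was not tested, as each rests on 1 library per group. Of the 19 genes, 11 had a lower level in gated than in B-lineage cells in both libraries and 3 a higher one, namely Isg15, Ifitm3 and Rsad2. The part of free RNA in these levels was not tested. Markers of other cells in the gated cells moved in both directions. B-lineage markers had a summed level of 1.88 in the MCAO library and 4.10 in the control library. Of 8 B-lineage markers 7 were at least 1.5-fold lower, against 4.15% of all genes. Dendritic cell markers had 5.75 and 7.91, and neutrophil markers 67.4 and 55.8. The part of these markers in the interferon difference was not tested.

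MHC class I genes, many of which respond to interferon, moved with them. All 9 had a lower level in MCAO gated cells, 4 by at least 1.5-fold, and the median log2 ratio was -0.54. Among all genes, 4.15% were at least 1.5-fold lower. B2m, the light chain of the complex, had 13.9 (13.5 to 14.3) in MCAO gated cells and 21.7 (21.0 to 22.3) in control gated cells. H2-K1, a heavy chain, had 5.20 and 7.98. Nlrc5, the factor that activates these genes, had 0.167 and 0.353, and Psmb9, a subunit of the immunoproteasome, had 0.471 and 0.828. Tap2 and Psmb8 had 0.503 and 0.557, and 0.823 and 0.946, and the intervals of these 2 ratios held 1. All 9 were lower in MCAO outside the gate as well.

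**Figure D3:**
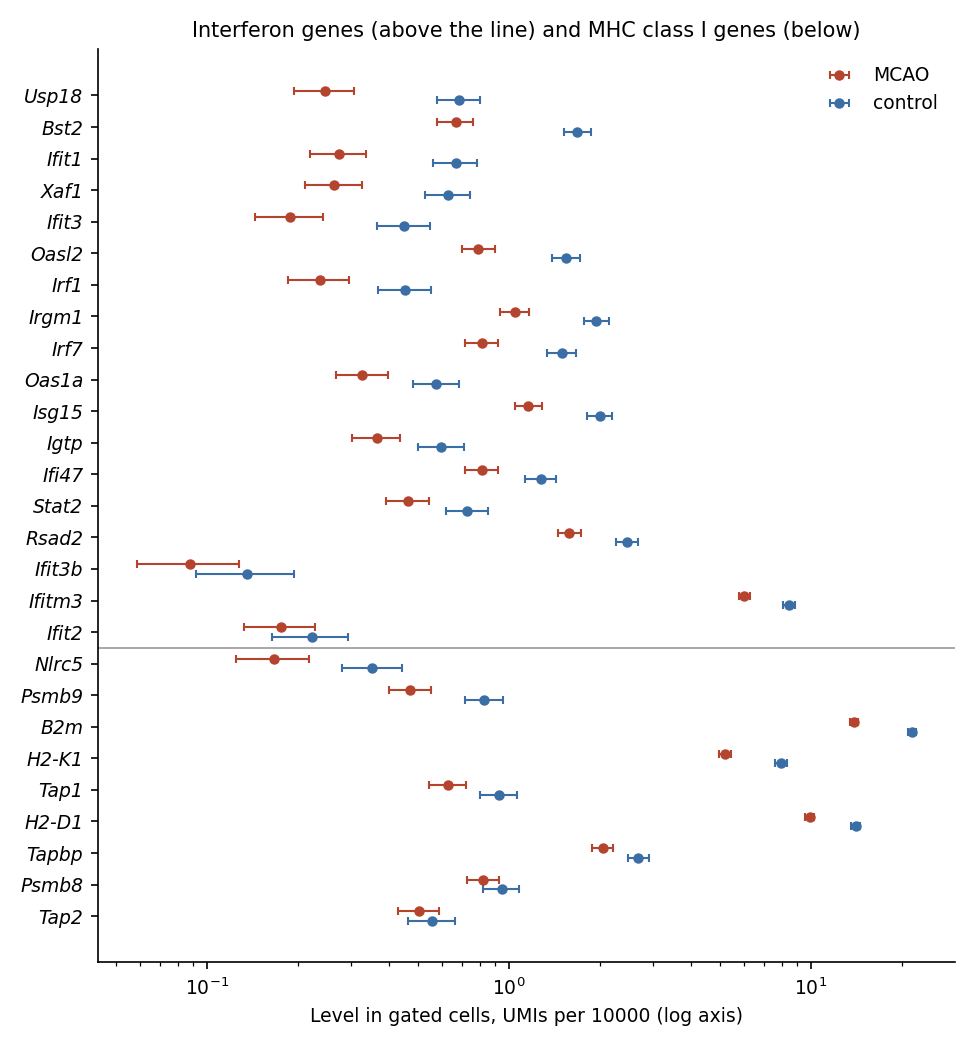
Levels of 18 of the interferon response genes and 9 MHC class I genes in the gated cells (UMIs per 10000, log axis) with 95% Poisson intervals, MCAO in red above control in blue. All 27 MCAO points lie left of their control points, by at least 1.5-fold for 15 interferon and 4 MHC class I genes.

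The named genes with the lowest ratios also included interferon-induced ones. Tgtp2, an interferon-induced GTPase that the gated cells carried above the cells outside, had 0.195 in MCAO gated cells and 0.878 in control gated cells, 4.51-fold lower. Its near copy Tgtp1 had 0.0189 and 0.0679, and reads of the pair may have been split. Ifi44, another interferon-induced gene, had 0.160 in MCAO gated cells and 0.792 in control gated cells. Iigp1, an immunity-related GTPase, had 0.0346 and 0.213, from 11 and 47 UMIs. In Iigp1, 1 cell gave 45.5% of the MCAO UMIs, and the log2 ratio was 2.65 in the highest haemoglobin range, against -2.69 and -4.10 in the others. Ifi44 was lower in each haemoglobin range, with log2 ratios of -2.09, -2.57 and -1.59.

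Haem and membrane genes were a little higher in the MCAO library. All 9 haem synthesis enzymes and all 17 red cell membrane and blood group genes had a higher level in MCAO gated cells, with median log2 ratios of 0.24 and 0.25, and none reached 1.5-fold. Outside the gate the medians were higher, at 0.32 and 0.60, with 9 of 9 and 16 of 17 genes higher in MCAO. Slc4a1 had 10.2 (9.83 to 10.5) in MCAO gated cells and 7.57 (7.21 to 7.94) in control gated cells, and Fech had 6.505 and 5.0. The gated medians moved with the gate: they were 0.04 and 0.09 with the 3 haemoglobin ranges weighted alike, 0.51 and 0.64 with an S100 limit of 100, and 0.16 and 0.13 with a haemoglobin limit of 500. The part of the mix of haemoglobin ranges in this difference was not tested.

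Of all genes, 2.22% were at least 1.5-fold higher in MCAO gated cells and 4.15% lower. The 16 erythroid transcription factors had a median log2 ratio of -0.03, with 0 at least 1.5-fold higher and 1 lower. That gene was Cbfa2t3, with 0.999 in MCAO gated cells and 1.52 in control gated cells. Gata1 had 3.66 and 3.77, and Tal1 3.51 and 3.36. Among 12 receptors and signalling genes 1 was at least 1.5-fold higher and the median was 0.23. Pim1, a kinase induced downstream of EPOR, was that gene, with 1.66 in MCAO gated cells and 1.07 in control gated cells, and its log2 ratio was 0.46, 0.59 and 0.69 over the haemoglobin ranges. Epor itself had 2.01 and 1.87, and Kit 0.914 and 0.756.

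Xpo7, a nuclear exporter needed for chromatin condensation in mouse erythroblasts, was the one gene of 15 in the terminal maturation list past 1.5-fold, with 0.660 (0.573 to 0.755) in MCAO gated cells and 0.299 (0.231 to 0.380) in control gated cells. It was higher in MCAO in each haemoglobin range, with log2 ratios of 0.88, 1.00 and 0.74. Its levels outside the gate were 1.27 and 0.944, above those of the gated cells. For comparison, 2.22% of all genes were at least 1.5-fold higher in MCAO gated cells and 4.15% lower.

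Heat shock and immediate early genes had lower medians, of -0.27 and -0.30. Of 11 heat shock chaperones 1 was at least 1.5-fold lower and none higher, against 4.15% and 2.22% of all genes. That chaperone was Hsph1, a partner of HSP70, with 2.09 in MCAO gated cells and 3.52 in control gated cells. Hsp90aa1, the inducible form of HSP90, had 11.6 and 16.4. Of 13 immediate early genes 3 were at least 1.5-fold lower, Jun with 0.415 and 0.670, Jund with 2.66 and 4.08, and Nr4a1 with 0.101 and 0.163. Both lists were also lower in MCAO outside the gate, at medians of -0.20 and -0.38. In the highest haemoglobin range the immediate early median was 0.10, against -0.30 and -0.40 in the other ranges.

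Cell cycle lists stayed close to all genes. The 22 S phase genes had a median of 0.08 and the 24 G2 and M phase genes a median of 0.01, and none of either list reached 1.5-fold in either direction. Mki67 had 19.7 in MCAO gated cells and 17.9 in control gated cells. Of 16 genes of ribosome production and polyamine synthesis 1, the RNA polymerase I subunit Polr1b, was at least 1.5-fold lower, with 0.276 and 0.453. The shares of all genes past 1.5-fold were 2.22% higher and 4.15% lower.

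A few single genes of other lists passed 1.5-fold, as did 2.22% of all genes upward and 4.15% downward. In the list of integrated stress and hypoxia genes, 2 of 12 were higher and 1 lower, and the median log2 ratio was 0.06. Pdk1, which encodes a kinase of pyruvate dehydrogenase, had 0.4995 in MCAO gated cells and 0.276 in control gated cells. It was higher in each haemoglobin range, with log2 ratios of 0.67, 1.53 and 0.59. Ndrg1, a gene induced by low oxygen, had 0.135 and 0.0679. Pfkl, the liver form of phosphofructokinase, was lower with 0.380 and 0.584, and Pgk1, phosphoglycerate kinase, was the second of 12 glycolysis genes that were lower, with 0.229 and 0.371. Per1, a circadian clock gene that also responds to glucocorticoids, was the one of 11 genes in its list that was lower, with 0.270 and 0.498, and it was lower outside the gate as well, at 0.177 and 0.378.

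**Figure D4:**
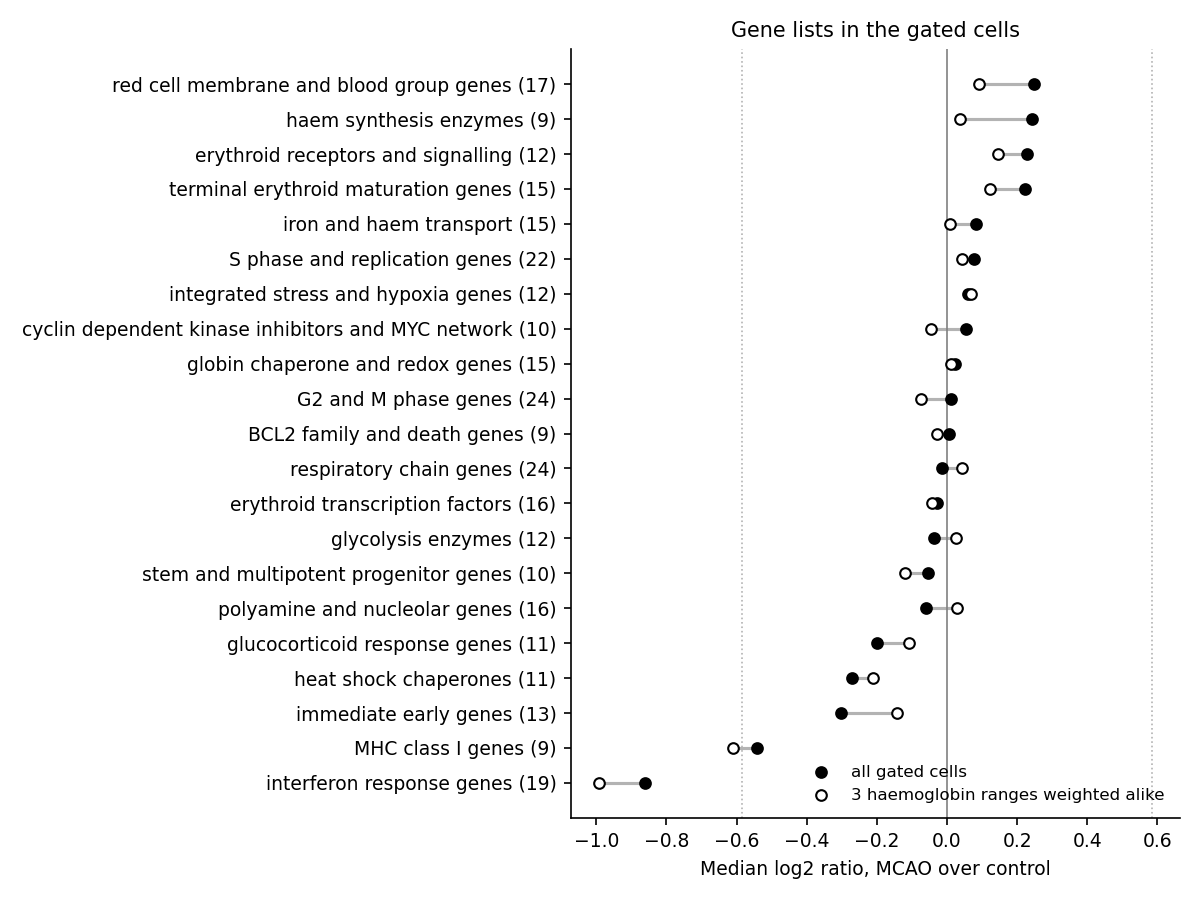
Median log2 ratio of MCAO over control gated cells for each pathway list, with the number of genes that passed the filter in brackets. Filled points use all gated cells, open points weight the 3 haemoglobin ranges alike, and dotted lines mark 1.5-fold. Interferon response genes lie at -0.86 and MHC class I genes at -0.54, and the haem and membrane lists move from 0.24 and 0.25 to 0.04 and 0.09.

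Genes of other cells were present at low levels and differed between the libraries. The B-lineage, dendritic cell and neutrophil sums are given above with the interferon genes, and the B-lineage sum was 12.9 in MCAO and 33.6 in control cells outside the gate. Promyelocyte markers had 5.77 and 4.22 in gated cells, against 46.4 and 33.1 outside. Macrophage markers had 1.98 and 1.96 and monocyte markers 7.74 and 7.91 in gated cells. Bst2 is in both the dendritic cell and the interferon list. Ltf, Ngp and Camp, which define neutrophils, had 5.19, 17.1 and 6.54 in MCAO gated cells and 4.14, 14.7 and 5.08 in control gated cells, so none was at 0. The part of other cells' RNA in the differences of the gated cells was not tested.

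By the naming rule without a condition on where a gene is expressed, the highest ratios were those of Stfa2, Stfa3, Wfdc17 and Tmem176b. Stfa2, a cystatin of neutrophils, had 0.386 in MCAO gated cells and 0.0136 (0.0028 to 0.0397) in control gated cells, from 123 and 3 UMIs. Its level outside the gate was 1.51 and 0.122, and in B-lineage cells 0.324 and 0.0234, close to that of the gated cells. All 4 genes had a lower level in the gated cells than outside in both libraries.

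A further rule named genes whose level in the gated cells, in the library where it was higher, was at least 1.5 times that of the cells outside. The difference between the libraries can itself bring a gene past this condition: Borcs5 stood at 1.86 times the outside level in the MCAO library and 0.689 times in the control library. The ratios of these genes are therefore a description. The 12 highest ran from 2.06 to 3.10, and 8 of the 12 were higher in all 3 haemoglobin ranges. These genes had between 58 and 317 UMIs over both libraries. Slc6a20a, a proline transporter, had the most UMIs, with 0.754 (0.662 to 0.856) in MCAO gated cells and 0.348 (0.275 to 0.435) in control gated cells, and was higher in each haemoglobin range, with log2 ratios of 0.30, 1.09 and 0.74. Hif3a, a hypoxia-inducible factor subunit, had 0.233 and 0.0995, and Zg16, a lectin, 0.198 and 0.0769. The others were Hist1h2bb, Borcs5, Rpl3-ps2, Arl16, Paqr4, Ninl, Ankrd13b, Rnu3a and Tspan15.

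The 12 lowest ratios of carried genes were 2.07-fold to 6.54-fold lower in MCAO, over 51 to 256 UMIs, and 9 of the 12 were lower in all 3 haemoglobin ranges. They comprised Hist1h2ae, Tgtp2, Rps2-ps10, Impact, Apol11b, Mterf4, Adat1, Zfp958, Brat1, Uchl4, Fbxo25 and Miga1. Uchl4 was lower in 1 range alone, Impact and Fbxo25 in 2, and Brat1 stood at 0.667 times the outside level in the MCAO library and 1.57 times in the control library. In Apol11b, 1 MCAO cell gave 60.0% of the MCAO UMIs. The histone genes Hist1h2bb and Hist1h2ae and the pseudogenes Rpl3-ps2 and Rps2-ps10 have near-identical copies, so their counts are uncertain. Of the 24 genes, Slc6a20a, Hif3a, Zg16, Paqr4, Ninl, Hist1h2ae, Tgtp2, Rps2-ps10, Mterf4 and Uchl4 overlap annotated genes on the opposite strand. The use of strand in the counting is not stated, so their reads could not be told apart from those of the overlapping genes. The same limit holds for other genes named in the text, among them B2m, Irf7, Usp18, Psmb9, Alas2 and Sox6.

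Genes that were not part of the gate were also ranked by how far the gated cells stood above the cells outside. The 12 leading genes by the smaller of the 2 library ratios were Sec14l2, Aldh1a7, Sphk1, Slc25a21, Atp1b2, Epdr1, Tmem56, Gstm5, Cited4, Slc38a5, Gfi1b and Aldh1a1, at 28.4 to 85.0 times the cells outside. Sphk1, which makes sphingosine 1-phosphate, had 1.92 in MCAO gated cells and 1.42 in control gated cells, against 0.0227 and 0.0228 outside. Gfi1b, a repressor needed for erythroid and megakaryocyte development, had 2.26 and 2.70, against 0.0736 and 0.0925 outside. Atp1b2, a sodium pump subunit, had 4.16 and 4.39, against 0.0732 and 0.0718 outside. Between the libraries the 12 genes had ratios of 0.838 to 1.35. The intervals, which leave out the spread between cells, excluded 1 for Sphk1 (1.35, 1.175 to 1.55), Gstm5 (1.33, 1.14 to 1.55), Tmem56 (1.198, 1.05 to 1.37) and Gfi1b (0.838, 0.750 to 0.935).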

How the data were processed

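Both libraries came in 1 table, in which the authors had put each entry on a natural log scale after scaling a cell to 10000 UMIs and adding 1, as the values themselves show: the unlogged values of every cell sum to 10000. The submitters' processing notes name Seurat 4.0.6, UMI-tools, STAR and fastp, with mm10 as the build; settings, annotation and cell filters are not stated. Whole UMIs were recovered for 100% of 19373615 values above 0 (tolerance 0.01 UMIs). All cells were kept. Column names were matched to the libraries by the Chinese words for control and stroke.

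UMIs were summed over the gated cells of each library (3183473 MCAO and 2210036 control) and divided by their total. Ratios had a pseudocount of 0.02, genes needed 50 UMIs and a UMI in 2% of cells of 1 library, and the 11 genes of the gate were left out. Intervals are exact Poisson, Clopper-Pearson and exact conditional binomial at 95%. Doublets were scored by Scrublet in scanpy 1.11.5, and left in. Figures used matplotlib 3.10.9 and intervals scipy 1.17.1, in Python 3.11.15; the ratio steps were tested on simulated data.

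Genes were named by rule: the 12 highest and 12 lowest ratios among genes carried at least 1.5-fold above the cells outside the gate, the 4 highest and 4 lowest of all genes, the 12 leading genes against cells outside, the 8 highest and 8 lowest over the haemoglobin ranges, and members of the described lists. The members, lists and rules were chosen with earlier results of these data known. Kit, Gata2 and the other genes of the range plot come from those lists. Mitochondrially encoded genes were not analysed here. A few members of the lists enter the counts, medians and sums but are not reported here by name.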

Additional observations from a re-analysis of the deposited data

How the results depend on the processing

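With an S100 limit of 100 the difference in gated share was -0.607 percentage points; the other 8 changes of gate, depth, doublets or doubtful cells, the last chosen after seeing the data, kept it above 0, with intervals that held 0 for a haemoglobin limit of 500 and for cells with at least 2000 UMIs. The log2 haemoglobin ratio, 0.58, was 0.495 with a marker threshold of 30, 0.377 and 0.406 with haemoglobin limits of 500 and 2000, 1.16 with the S100 limit of 100, 0.606 in cells with at least 2000 UMIs and 0.314 as a mean of per-cell levels. Genes higher in MCAO, 192, numbered 683 by per-cell means, 466 with haemoglobin ranges weighted alike, 53 with a pseudocount of 0.1, and 444 and 988 with minimums of 20 and 1 UMIs. Genes lower, 359, numbered 742 with the S100 limit of 100, 986 by per-cell means, 126 with the pseudocount of 0.1, 447 with haemoglobin ranges weighted alike, and 636 and 1248 with those minimums; lower genes outnumbered higher ones except with the ranges weighted alike. Genes 2-fold lower in the highest haemoglobin range, 815, numbered 247 with the S100 limit of 100. Where the settings keep genes with fewer UMIs or weight shallow cells alike, counting error is larger by construction; the cause of the other changes was not tested. Apol11b turned to 0.488 (log2) with the S100 limit of 100. The interferon median stayed between -1.08 and -0.738 and the MHC class I median between -0.650 and -0.482 under every setting tried. No paired analysis was possible because each group has 1 library.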

Other observations

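Few UMIs were counted for Ftl1 and Gpx4 in the gated cells. Both have closely related copies, so their counts are uncertain and do not show that the cells lack these mRNAs. The levels in this paragraph are given for each gene and not set against each other. Fth1, the ferritin heavy chain, had levels of 46.4 in the MCAO library and 43.8 in the control library, and Ftl1, the light chain, 0.0628 and 0.118, from 20 and 26 UMIs. Gpx1, a glutathione peroxidase, had 29.9 and 27.8, and its relative Gpx4 0.229 and 0.253. Outside the gate Ftl1 had 0.136 and 0.241 and Gpx4 0.132 and 0.103.

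The 4 haemoglobin genes, which chose the cells through their upper limit, were each higher in late than in gated cells. In gated cells Hba-a1 had 91.6 and 62.0 and Hba-a2 23.1 and 14.8 in the MCAO and control libraries, whereas in late erythroid cells they had 968.2 and 940.3, and 529.7 and 535.8. Hbb-bs had 44.6 and 27.5 and Hbb-bt 29.4 and 22.1 in gated cells, against 684.9 and 660.8, and 305.3 and 298.7, in late cells. Hba-a1 and Hba-a2 are near-identical copies, so the split of their counts is uncertain.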
